A study of Mus musculus with 2 samples.

Results

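The 10 genes described here encode the core enzymes of DNA methylation and the core subunits of the Polycomb complexes: Dnmt1, Dnmt3a, Dnmt3b, Tet1, Tet2, Tet3, Ezh2, Eed, Suz12 and Bmi1. They were chosen by symbol, and their transcripts were compared between LSK cells of an Ago2 Hem KO sample and of a control sample. Of the 10 genes, 9 had a named probe on the array, with 18 probes among 45281 in all, and 7 were detected on both arrays, among 8212 genes so detected. Tet2 had no named probe and was not analysed here.

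Both samples were bone marrow cells of C57BL/6J mice sorted as LSK, meaning free of mature lineage markers and positive for Sca1 and c-Kit, the fraction in which blood stem cells and early progenitors are found. The product of Ago2 is an Argonaute, a protein that microRNAs guide to messenger RNAs for silencing. Each genotype was a single sample on a single Illumina bead array, so the spread between animals is unknown, differences carry no test, and 1 array a group sets how precise any value can be. The sources used here do not give the ages, the number of animals behind a sample, the allele or any Cre driver. Genotypes are named as in the labels.

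DNA methylation is written on CpG cytosines by Dnmt3a and Dnmt3b and copied after replication by Dnmt1, while the Tet enzymes oxidise the mark and start its removal. The Polycomb repressive complex PRC2, with Ezh2 as its enzyme and Eed and Suz12 as its other core subunits, methylates histone H3 at lysine K27. PRC1, in which Bmi1 can serve, ubiquitinates histone H2A. In blood, Dnmt3a and Tet2 are known for restraining stem cell expansion, Bmi1 for sustaining stem cell self-renewal, and PRC2 for its part in progenitor growth and lymphoid development.

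Several of these genes have been described as microRNA targets, mostly in human cells, which is why the following 9 mouse mature sequences are shown. The miR-29 family has been described for human DNMT3A, DNMT3B and TET1, miR-101 for human EZH2, miR-26a for mouse Ezh2, miR-128 for human BMI1 and miR-22 for TET2. The sequences are RefSeq's (GRCm38.p6), 5′ to 3′, with the seed (bases 2 to 8) in capitals.
miR-29a-3p: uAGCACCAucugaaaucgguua
miR-29b-3p: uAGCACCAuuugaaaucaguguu
miR-29c-3p: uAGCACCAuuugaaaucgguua
miR-26a-5p: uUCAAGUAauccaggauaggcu
miR-26b-5p: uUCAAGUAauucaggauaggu
miR-101a-3p: uACAGUACugugauaacugaa
miR-101b-3p: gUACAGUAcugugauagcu
miR-128-3p: uCACAGUGaaccggucucuuu
miR-22-3p: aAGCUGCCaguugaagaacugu

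The 3 miR-29 members share a seed, and so do the 2 miR-26 members. The entry for miR-101b-3p starts a base earlier than that for miR-101a-3p, so its bases 2 to 8 differ although the following bases overlap. The arrays did not measure mature microRNAs, and target sites in the transcripts were not searched, so these sequences are background to the values below.

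With background correction and quantile normalization no member differed by as much as 1.5-fold between the genotypes, while Eed passed 1.5-fold in 2 of 8 other settings, given with the settings. Among all 8212 genes detected on both arrays, 0.438% differed by at least 2-fold in either direction and 3.8% by at least 1.5-fold, against 0 of the 7 members at either threshold. By direction, 0.304% of all genes were at least 2-fold higher and 0.134% at least 2-fold lower in the Ago2 Hem KO sample, and 1.9% passed 1.5-fold each way. Counted by probe, 0 of the members' 9 detected probes reached 1.5-fold, against 4.06% of 12478 named probes at 1.5-fold and 0.465% at 2-fold. Eed was highest, 1.47-fold above control, with Ezh2 and Dnmt1 slightly above 0 and Suz12, Tet1, Dnmt3b and Bmi1 slightly below it on the log2 scale. The median log2 difference (Ago2 Hem KO minus control, after background correction and quantile normalization) was -0.06 for the 7 members and -0.05 for all genes. Of the members 3 lay above 0 and 4 below, and of all genes 41.8% and 58.1%, so the direction counts also lay close together. Since whole samples were measured, fewer cells that express a gene and less of its RNA per cell cannot be told apart for any of these values.

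**Figure D1:**
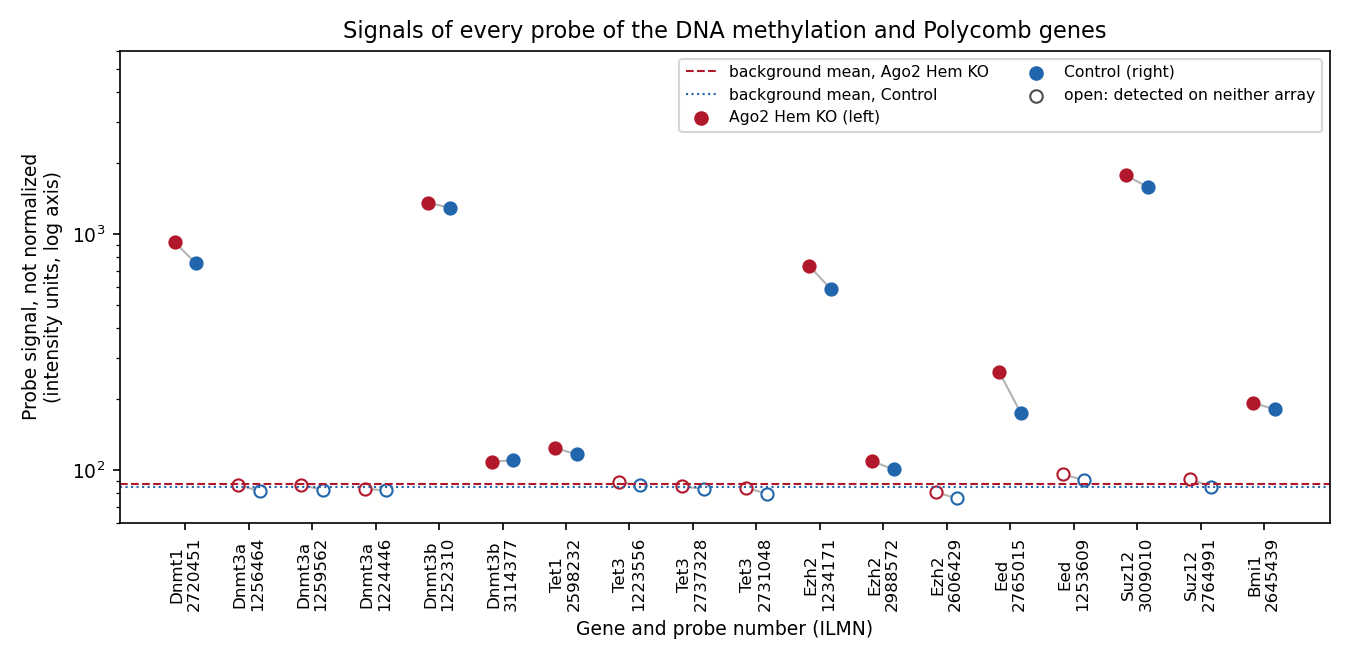
Signal of each of the 18 probes on the Ago2 Hem KO array (red, left) and the control array (blue, right), not normalized, on a log axis in intensity units; horizontal lines mark the background means of 87.8 and 84.7, open circles are probes detected on neither array, and heights of different probes are not comparable. In all, 9 probes were detected on both arrays and 9 on neither, among them all probes of Dnmt3a and Tet3.

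The array readings that these values share were as follows. A probe is called detected where its deposited detection p-value was under 0.01. On the Ago2 Hem KO array 34.4% of probes were detected and on the control array 32.8%, with 75th percentile signals of 135 and 121, so unnormalized signals ran higher on the Ago2 Hem KO array. One Ago2 probe read 180.9 in the Ago2 Hem KO sample and 225.9 in control, and another read 179.5 against 288.3, with log2 differences of -0.79 and -1.29. The other Ago2 probe differed by -0.44, and whether any Ago2 probe lies in the deleted stretch is not stated in the labels. Of the stem and progenitor markers, 5 of 13 with a probe were detected on both arrays: Kit (2793 against 2071), Cd34 (497 against 359), Gata2 (1040 against 674, a log2 difference of 0.45), Meis1 and, near background, Tek (114 against 123, a log2 difference of -0.62). Mecom (107.6 against 96.3), Cd48 (107.5 against 95.3) and Ptprc (108.8 against 94.6) were detected on the Ago2 Hem KO array only. These readings lay near the lowest detected signals, 101 on the Ago2 Hem KO array and 97.8 on the control array. Of all 19057 genes with a named probe, 8212 were detected on both arrays and 10163 on neither. Flt3, Procr, Slamf1, Hlf and Mycn were detected on neither. Sca1 itself, the product of Ly6a, had no named probe.

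Among the DNA methyltransferases, Dnmt1, the maintenance enzyme, read 927 in the Ago2 Hem KO sample and 752 in control on its only probe. The Ago2 Hem KO value was the higher, as were most signals on that array. After normalization the log2 values were 9.63 and 9.54, a difference of 0.09 (1.06-fold). Before any normalization its signal above background was 1.26 times the control's, where the median of all genes was 1.16.

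Dnmt3b, a de novo methyltransferase, had 2 detected probes. The first read 1359 in the Ago2 Hem KO sample and 1297 in control, and differed by -0.17 after normalization (1.12-fold lower). The second lay near background, at 108.7 and 110.2, and differed by -0.39. Both probes thus had the same sign, with a gap of 0.22 between them. Across 3016 genes with at least 2 detected probes, the median gap between the log2 differences of the 2 brightest was 0.18, and 63.8% had the same sign on both, so the Dnmt3b difference on the first probe was about as large as the usual disagreement between probes of a gene.

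Dnmt3a, the other de novo enzyme, was not detected on any of its 3 probes. They read 86.7, 86.5 and 83.4 in the Ago2 Hem KO sample, with detection p-values from 0.548 to 0.868, and 81.5, 82.5 and 82.0 in control, with detection p-values from 0.689 to 0.792. All 6 readings lay below the background mean of their array. No fold is given, since both samples were below the level these probes can measure: the lowest signal that counted as detected was 101 on the Ago2 Hem KO array and 97.8 on the control array.

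Of the Tet dioxygenases, Tet1 was detected on its single probe, at 124 in the Ago2 Hem KO sample and 117 in control. These signals stood 36.3 and 32.1 units above background, and the normalized log2 difference was -0.13 (1.10-fold lower). Tet3 was not detected on any of 3 probes, which read 89.0, 85.3 and 84.0 in the Ago2 Hem KO sample and 86.3, 83.3 and 79.6 in control. The Tet family is therefore represented by a single dim probe here.

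Ezh2, the PRC2 methyltransferase, read 735 in the Ago2 Hem KO sample and 588 in control on its brightest probe, a log2 difference of 0.12 (1.09-fold higher). A second Ezh2 probe, near background at 109 and 101, differed by 0.02. The 2 probes had the same sign and a gap of 0.11, smaller than the gap of 68.5% of genes. Another Ezh2 probe read below background on both arrays, at 80.5 and 76.0.

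Suz12, the PRC2 subunit that holds the complex together, read 1777 in the Ago2 Hem KO sample and 1583 in control. After normalization it differed by -0.06 (1.04-fold), close to the median of all genes. Its other probe was not detected, at 92.2 and 84.9.

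Eed, the PRC2 subunit that binds trimethylated lysine K27 and stimulates Ezh2, read 260.0 in the Ago2 Hem KO sample and 174.5 in control on the probe annotated to its RefSeq transcript. The log2 values were 7.43 and 6.87, a difference of 0.56 (1.47-fold higher). Above background the signals were 172 and 89.7, a ratio of 1.92, against a median ratio of 1.16 and an upper quartile of 1.33 over all genes. Of all genes detected on both arrays, 2.18% lay higher than Eed, whose difference was just above the central 95% of all genes (-0.55 to 0.53). Its second probe, annotated to a cDNA (AK016228), was not detected, at 96.2 with a detection p-value of 0.047 in the Ago2 Hem KO sample and at 90.5 with 0.0983 in control. The Eed difference therefore rests on a single probe on single arrays. Whether it exceeds the spread between animals could not be tested.

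Bmi1, a PRC1 subunit that partners the ubiquitin ligases Ring1 and Rnf2, read 193 in the Ago2 Hem KO sample and 181 in control. Its normalized log2 difference was -0.18 (1.13-fold lower), next to Dnmt3b, and 71.0% of all genes lay higher. Either of these genes was the lowest of the members, depending on the setting.

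**Figure D2:**
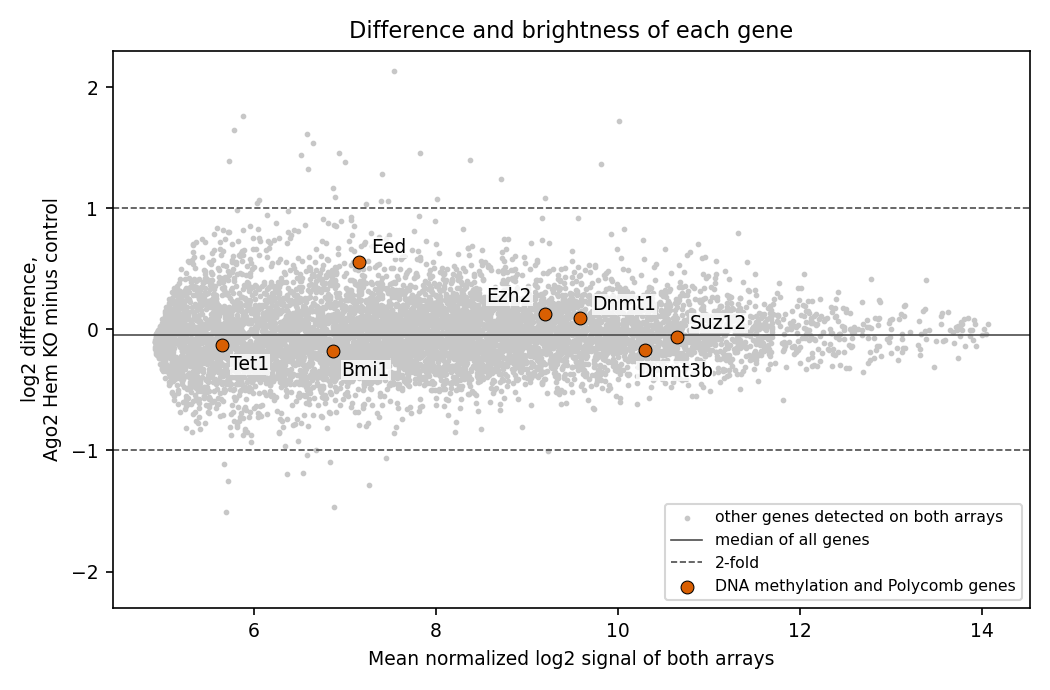
Log2 difference (Ago2 Hem KO minus control) of each gene detected on both arrays against its mean normalized log2 signal; orange points are the 7 detected DNA methylation and Polycomb genes, grey points the other genes, dashed lines 2-fold. Eed at 0.56 lies apart from the other members, which run from -0.18 to 0.12 around the median of all genes (-0.05).

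The signs near 0 depended on how the arrays were scaled. With each array scaled to the same median in place of quantile normalization, all 7 members lay above 0 and so did 75.8% of all genes, as the median of all genes moved by 0.21. The median matched there was that of all 45281 probes, of which 34.4% and 32.8% were detected. It lay among undetected probes and was not that of the detected genes. Set against the median of all genes, each member kept its side in all 9 settings. The settings share the same arrays and are not independent, so this was partly built in. Either detection filter left the members' own values unchanged, and the mean of detected probes changed only Dnmt3b and Ezh2. Without background correction, with an offset of 50 and in the deposited table, 3434 genes lay above 0, the same count as in the main setting. Those settings and the main one give both arrays 1 shared distribution. A sign then follows a probe's rank on each array, so the equal count was built in. Eed lay 0.38 to 0.64 above the median of all genes, Ezh2 0.12 to 0.17 and Dnmt1 0.11 to 0.14. Below it, Dnmt3b lay at -0.23 to -0.12, Bmi1 at -0.16 to -0.07, Tet1 at -0.12 to -0.02 and Suz12 at -0.05 to -0.01. Between 1.42% and 2.83% of genes lay higher than Eed across these settings, so its place among the genes stayed near the top while its size depended on the setting. It reached 1.5-fold with cyclic loess (0.62) and with scaling to the same median (0.80), and was smallest in the authors' deposited value table (0.35).

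**Figure D3:**
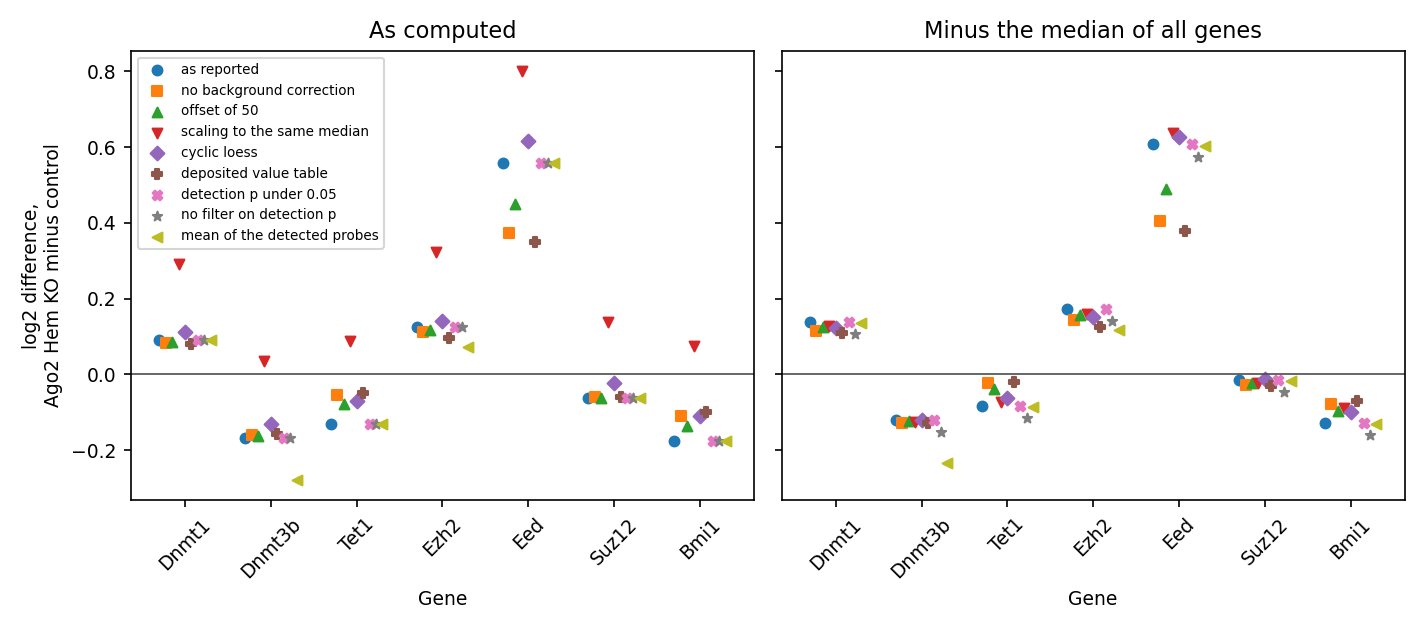
Log2 difference (Ago2 Hem KO minus control) of the 7 detected genes under the 9 processing settings, as computed (left) and minus the median of all genes in that setting (right). Scaling to the same median lifts all 7 genes above 0 in the left panel, while in the right panel Dnmt1, Ezh2 and Eed stay above 0 and the other 4 genes below 0.

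As a sequence feature that the choice of members did not use, the promoters were compared. RefSeq's windows of 250 bases before to 50 after a transcription start (GRCm38.p6) gave 14 windows for the 10 genes. All 10 genes had a window with more CpG dinucleotides than the median window of all 32851 (7), from 17 in Eed and Tet1 to 57 in Tet2. Each gene was counted by its richest window, and the 3 windows of Dnmt1 held 33, 12 and 2. The share of all genes with such a window was not computed. The motif of E2F factors, which drive genes at entry into the cell cycle, was then searched as TTTCCCGC, TTTGGCGC, TTTCGCGC and TTTGCCGC on both strands, of which TTTGGCGC, TTTCCCGC and TTTCGCGC were met in the members. The motif was chosen after the members' values were seen. A match stood in 3 of the 14 windows, 1 each of Dnmt1, Ezh2 and Suz12, against 2.26% of all windows. Each searched motif holds a CpG, and the matched windows of Dnmt1, Ezh2 and Suz12 hold 33, 31 and 41 CpG. All windows, with a median of 7, were not matched to the members in composition, so this count cannot tell whether the motif is enriched. The Eed window held none. The Ezh2 and Suz12 windows are shown for their matches (capitals) and the Eed window, which has none, because Eed differed most. A match is a description of these letters and not a measured binding site.
Ezh2, chr6:47594981-47595280, minus strand: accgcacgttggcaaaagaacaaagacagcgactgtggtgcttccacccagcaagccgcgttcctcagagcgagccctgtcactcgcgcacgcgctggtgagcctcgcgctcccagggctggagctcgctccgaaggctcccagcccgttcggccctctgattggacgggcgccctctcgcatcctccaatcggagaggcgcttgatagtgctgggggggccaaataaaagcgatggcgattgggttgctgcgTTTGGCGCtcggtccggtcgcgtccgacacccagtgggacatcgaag
Suz12, chr11:79992856-79993155, plus strand: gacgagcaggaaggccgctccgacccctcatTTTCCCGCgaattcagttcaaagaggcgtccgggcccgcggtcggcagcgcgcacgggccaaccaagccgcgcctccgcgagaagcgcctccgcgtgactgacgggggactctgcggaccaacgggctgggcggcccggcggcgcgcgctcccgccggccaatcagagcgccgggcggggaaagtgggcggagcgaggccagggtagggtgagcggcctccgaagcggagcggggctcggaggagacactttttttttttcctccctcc
Eed, chr7:89980927-89981226, minus strand: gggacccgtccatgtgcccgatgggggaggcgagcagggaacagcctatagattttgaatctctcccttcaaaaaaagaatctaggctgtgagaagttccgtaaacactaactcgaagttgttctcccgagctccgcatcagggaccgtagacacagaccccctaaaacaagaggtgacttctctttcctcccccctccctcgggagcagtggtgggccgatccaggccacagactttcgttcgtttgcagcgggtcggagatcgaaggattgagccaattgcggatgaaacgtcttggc

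The genes that act with the members were described in 5 lists of 76 genes, of which 61 were detected on both arrays. By their brightest probes none of the 61 differed by 2-fold, 1 was at least 1.5-fold higher and 0 were 1.5-fold lower. In all this was 1.64%, against 3.8% of all genes. Dimmer detected probes of Ahcy (-0.73, against 0.20 on its brightest) and Rbbp4 (0.64, against -0.20) passed 1.5-fold, with the other sign than the brightest probe. The partners lay above 0 in 25 cases and below it in 36, or 41.0% above 0 against 41.8% of all genes. Their median was -0.06 and that of all genes -0.05. Described targets and proliferation genes, which are no partners, follow as 2 further lists.

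Among DNA methylation partners and readers, 13 of 20 were detected on both arrays, 6 above and 7 below 0, with a median of -0.06. Uhrf1, which brings Dnmt1 to hemimethylated DNA, read 1953 in the Ago2 Hem KO sample and 1448 in control, a log2 difference of 0.22. Usp7, a deubiquitinase that binds Dnmt1, was highest at 0.27, with its other detected probes at 0.09 and -0.000914. Dmap1, a Dnmt1-binding protein, was lowest at -0.41 (471 against 521), followed by the heterochromatin corepressor gene Trim28 at -0.33 (2822 against 3050). Hells, Mbd2, Zbtb38 and Dppa3 were detected on neither array.

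By brightest probe, the list of base excision and metabolite genes, which includes Ahcy, held the largest difference. Idh2, the mitochondrial isocitrate dehydrogenase that makes the 2-oxoglutarate used by Tet enzymes among many others, read 912 in the Ago2 Hem KO sample and 506 in control, a log2 difference of 0.71 (1.64-fold higher). It has a single probe and lay between 0.61 and 0.91 in the 9 settings. Ogt, which encodes the O-GlcNAc transferase that associates with Tet proteins, read 421 against 273 on its brightest probe. Its log2 differences on 4 detected probes were 0.50, 0.15, 0.14 and 0.50, all of the same sign. At the other end, the DNA glycosylase genes Neil1 and Mbd4 differed by -0.36 and -0.26. Neil1 lay near background, at 103.4 in the Ago2 Hem KO sample and 104.4 in control, and ran from -0.36 to -0.10 in the 9 settings. Over 14 detected genes the median was -0.02, with 6 above and 8 below 0.

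For the PRC2 partners the median was -0.05 over 8 detected of 11, with 3 above and 5 below 0. Lcor, a nuclear receptor corepressor gene whose locus also encodes a PRC2-associated protein, was highest at 0.45 (147 against 114). Eloc, an elongin subunit gene, followed at 0.08. Rbbp4, a histone-binding PRC2 subunit shared with other complexes, was lowest at -0.20 on its brightest probe, but its other detected probes lay at 0.06 and 0.64. Phf19, a PRC2 accessory subunit, differed by -0.19, and both Rbbp4 and Phf19 lay above 0 with scaling to the same median. Ezh1, the alternative PRC2 enzyme, and the accessory genes Jarid2 and Phf1 were detected on neither array.

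The PRC1 partners had the lowest list median, -0.10 over 19 detected of 22, with 8 above and 11 below 0. L3mbtl2, of a variant PRC1, read 207 in the Ago2 Hem KO sample and 153 in control, a log2 difference of 0.41. Pcgf3, a Bmi1 paralogue, differed by 0.33. The chromodomain subunit gene Cbx2 was lowest at -0.34 (124.2 on both arrays before normalization), and the polyhomeotic gene Phc2 differed by -0.29 (557 against 573). Rnf2, the main PRC1 ubiquitin ligase, and the Bmi1 paralogue Pcgf2 were detected on neither array, while Ring1, the other ligase, differed by 0.06 on one probe and -0.35 on another.

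Of the 8 genes that remove Polycomb marks or act with those that do, 7 were detected, with a median of -0.08. Asxl1, a cofactor of the H2A deubiquitinase Bap1, was highest at 0.17 and Bap1 followed at 0.02. The lysine K27 demethylase gene Kdm6b differed by -0.16 on its brightest probe and 0.29 on its other. Uty, the Y-linked relative of Kdm6a, was lowest at -0.20 and barely above background, at 102 and 99.4.

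Genes described elsewhere as Polycomb or DNA methylation targets were detected about as often as other genes. Of 15 with a named probe, 9 were detected on neither array, against 53.3% of all 19057 genes with a named probe. The 9 included Cdkn2a and Cdkn2b, the cell cycle inhibitor genes that Bmi1 represses, and the fetal genes Hmga2 and Lin28b. Among the 6 detected, Hoxa9 and Gata3, transcription factor genes, differed by 0.24 and 0.23. Meis1, a homeobox gene of stem cells, differed by 0.14 on its brightest probe (900 against 709) and by 1.25 on its other detected probe (267 against 137), so its probes disagree in size. Cdkn1c, an imprinted inhibitor of cyclin-dependent kinases, differed by -0.45 (148 against 154), and Igf2bp3, a fetal RNA-binding protein gene, by -0.17, above 0 with scaling to the same median.

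Proliferation genes are given because Dnmt1 and Ezh2 are expressed most in dividing cells. Of 13 detected, 7 lay above and 6 below 0, with a median of 0.01. Cdk1, the mitotic kinase, was highest at 0.35 (2096 against 1429) and the thymidylate synthase gene Tyms followed at 0.20, its 4 detected probes differing in sign. Rrm2, a ribonucleotide reductase subunit gene, was lowest at -0.14, followed by the replication helicase gene Mcm2 at -0.11. Both lay above 0 with scaling to the same median. These are values of brightest probes. Among dimmer detected probes, differences reached 0.68 for Top2a (0.01 on its brightest), 0.58 for Mcm6 (-0.04) and -0.51 for Rrm2.

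**Figure D4:**
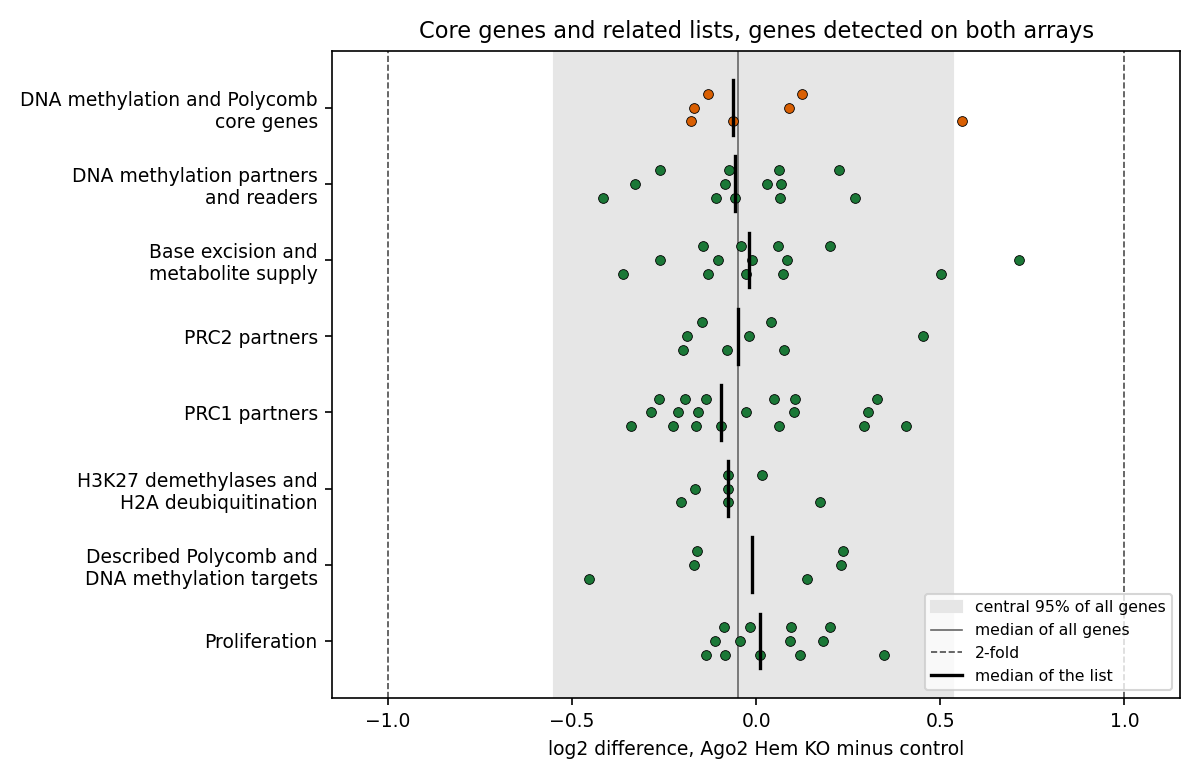
Log2 difference (Ago2 Hem KO minus control) of each gene detected on both arrays, for the core genes (orange) and 7 related lists (green); black bars are list medians, the shaded band the central 95% of all genes (-0.55 to 0.53), dashed lines 2-fold. Eed at 0.56 and Idh2 at 0.71 are the points outside the band, and all list medians lie between -0.10 and 0.01.

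Markers of mature blood cells were described too, although the LSK gate is meant to remove lineage-positive cells. Of 11 erythroid markers with a probe, 7 were detected on both arrays and 3 on the Ago2 Hem KO array only. The 3 were Ermap (130 against 92.5), Epor (118 against 95.7) and, near background, Slc4a1 (102 against 87.5). Those 7 all lay above 0 with a median of 1.40, and 5 were at least 2-fold higher, with summed signals of 5972 in the Ago2 Hem KO sample and 2666 in control. They ran from the transcription factor gene Gata1 at 0.14 to the alpha globin gene Hba-a1 at 2.14. Alas2, made late in red cell formation, was detected on neither array. Their part in the Eed and Idh2 differences was not tested. All marker sums are of signals not normalized, and over all genes detected on both arrays these summed to 6.18e+06 and 5.48e+06. The 8 mature neutrophil markers summed to 26997 and 24657, with a median of -0.08, from Retnlg at -1.12 to S100a9 at 0.25. Of the 8, 2 (Retnlg and Ltf) were at least 2-fold lower, against 0.134% of all genes. The 7 B cell and plasma cell markers summed to 1585 and 1465, with a median of -0.16, 2 above and 5 below 0. They ran from the pre-B receptor gene Igll1 at -0.79 to Pou2af1 at 1.39. Pou2af1 and Mzb1 (298 against 141, a log2 difference of 1.38) were at least 2-fold higher, 2 of the 7 against 0.304% of all genes. Monocyte and macrophage markers had 3 genes detected on both arrays (summed signals of 514 and 447) and 3, all of complement C1q, on the Ago2 Hem KO array only. C1qc read 171 against 94.2, C1qb 164 against 93.9 and, near background, C1qa 108 against 90.2. The 6 mast cell and basophil markers ran from -0.14 to 0.46, a range like that of the members.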

How the data were processed

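Per the labels' protocols, RNA of 1 Ago2 Hem KO and 1 control sample was amplified, biotin-labelled and hybridised to Illumina bead arrays. The deposited non-normalized table holds a mean bead intensity for each probe on a linear scale, with a detection p-value, per the file headers. The submitters' processing notes name BeadStudio, with no version. A second deposited table gives intensity with 1 shared distribution for both arrays. How it was normalized the sources used here do not say, and its log2 served as an alternative.

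From the non-normalized signals, limma 3.58.1 in R 4.3.3 inferred the background (means 87.8 and 84.7, SD 4.38 and 4.20 for Ago2 Hem KO and control) from the detection p-values, applied normexp with an offset of 16, quantile normalized and took log2. Quantile normalization removes a change shared by most genes, and the offset pulls differences of dim probes towards 0. Probes were named through the platform annotation (34885 with 1 symbol, of which 34807 matched GRCm38.p6 gene identifiers, 18 with several, 10378 with none). The value of a gene was its brightest probe, by mean log2, among those with a detection p under 0.01 on both arrays.

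No test was run, since each genotype has 1 array. Called means 2-fold or 1.5-fold. The members and lists were chosen with earlier results of these data known. In each of the 7 related lists the 2 highest and 2 lowest detected genes are named. All other genes named were chosen after their values were seen. These are Ring1, Meis1, Ahcy, Top2a, Mcm6, genes given as not detected, cell markers and the genes of lists added later. The steps were tested on simulated arrays. There were 8 alternatives: cyclic loess, median scaling (both arrays to the same median), an offset of 50, signals without background correction, the deposited table, a detection p under 0.05, no detection filter, and the mean of detected probes.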

Additional observations from a re-analysis of the deposited data

How the results depend on the processing

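No paired analysis was possible because each genotype has 1 array. A value counted as moved where it changed by more than 0.18 on the log2 scale, the median gap between 2 probes of a gene, since there are no replicates. Scaling to the same median, which moved the median of all genes to 0.16, moved every member: Dnmt1 to 0.29, Dnmt3b to 0.036, Tet1 to 0.088, Ezh2 to 0.32, Eed to 0.80, Suz12 to 0.14 and Bmi1 to 0.074. It moved the list medians to 0.14 (members), 0.16 (DNA methylation partners), 0.23 (base excision and metabolites), 0.15 (PRC2 partners), 0.12 (PRC1 partners), 0.14 (H3K27 demethylases and H2A deubiquitination), 0.18 (described targets) and 0.22 (proliferation). Eed also moved without background correction (0.37) and in the deposited value table (0.35). Members past 1.5-fold numbered 0 as reported and 1, Eed, with scaling to the same median and with cyclic loess, and 0 reached 2-fold in any of the 9 settings. Of the member values, none moved with an offset of 50, either detection filter, cyclic loess or the mean of the detected probes.

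Counts over all genes moved more. Genes 2-fold higher and lower in Ago2 Hem KO numbered 25 and 11 as reported, 6 and 0 without background correction, 15 and 2 with an offset of 50, 60 and 4 with scaling to the same median, and 6 and 0 in the deposited value table. At 1.5-fold the counts were 156 and 156 as reported, and in the same order 46 and 18, 76 and 39, 529 and 33, and 42 and 15. The causes were not tested, beyond the shift of all genes under scaling to the same median. Signal over background limits Tet1 and the second probes of Dnmt3b and Ezh2, which lay under 40 units above it.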

Other observations

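Chromatin genes outside DNA methylation and Polycomb were described in 3 lists added after the data were seen, with no test. Of all genes 41.8% lay above 0 as reported and 75.8% with scaling to the same median, beside which the counts below stand. Among Trithorax group genes, which set or remove methylation at lysine K4 of histone H3, 11 of 15 detected genes lay above 0 (12 with that scaling), with a median log2 difference (Ago2 Hem KO minus control) of 0.10. The methyltransferase genes Setd1b and Kmt2d were highest, at 0.61 and 0.50, and the demethylase gene Kdm5b (-0.43, with 3 of 3 detected probes below 0) and the adaptor gene Rbbp5 (-0.35) were lowest. By brightest probe Setd1b was the single gene of the list past 1.5-fold as reported, against 1.9% of all genes in that direction. A dimmer Kdm5b probe (130 against 156) differed by -0.84 and also passed 1.5-fold. Over the 9 settings Setd1b ran from 0.50 to 0.82 and Kdm5b from -0.59 to -0.18, so each lay past 1.5-fold in some settings only.

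Genes of lysine K9 methylation and heterochromatin had a median of 0.16, with 7 of 9 detected above 0 (8 with that scaling). They ran from the demethylase gene Kdm3a at 0.25 to Cbx3, which encodes a heterochromatin protein, at -0.25. The other detected probes of Kdm3a differed by 0.09 and -0.24. Histone acetylation and NuRD genes had a median of -0.06, with 5 of 14 detected above 0 (11 with that scaling), from Mta2, a NuRD subunit gene, at 0.37 to the acetyltransferase gene Kat5 at -0.30. None of these genes reached 2-fold.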
